A study of Mus musculus with 6 samples.

Results

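The BCL2 family of apoptosis genes was followed in hematopoietic stem cells (HSCs) of mouse fetal liver with and without Dpy30, which the SET1/MLL histone H3 lysine 4 methyltransferases share as a subunit. The 10 members were taken by name out of 38926 gene symbols: the survival genes Bcl2, Bcl2l1 and Mcl1, and the death genes Bax, Bak1, Bbc3, Pmaip1, Bcl2l11, Bid and Bad. All 10 were found in the count tables and all 10 passed the filter on low counts. Bax, Bbc3 and Pmaip1 are textbook transcriptional targets of p53 and were set against the other 7. RNA sequencing covered 6 samples of flow-sorted HSCs from E14.5 embryos. The 3 controls had the genotype Vav-Cre; Dpy30F/+ and the 3 knockouts the genotype Vav-Cre; Dpy30F/-, and each of 3 litters gave 1 sample of each genotype. All 6 samples carried Vav-Cre, a Cre recombinase transgene driven in blood-forming cells, and a floxed Dpy30 allele, so the comparison is with cells that keep 1 intact allele. Whether a sample was 1 embryo or a pool is not given in the labels.

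BCL2 family proteins decide whether the outer mitochondrial membrane is breached. Bax and Bak1 are the effectors that form pores and release cytochrome c, the survival proteins hold them in check, and the BH3-only proteins (encoded here by Bbc3, Pmaip1, Bcl2l11, Bid and Bad) bind the survival proteins or the effectors to start the process. Mcl1 and Bcl2l1 are known for their part in keeping hematopoietic cells alive, and Bbc3, which encodes PUMA, for p53-driven death of HSCs and progenitors.

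The sequence before a RefSeq start is shown for Bax and Bbc3 because in both genes every knockout lay above every control. Another reason is that p53 binds DNA as a pair of half-sites of 10 letters each. RefSeq promoter windows (GRCm38.p6, 250 bases before to 50 after each start) matched 9 of the 10 members, all but Pmaip1, with 15 windows. Every window was scanned for the stretch that best fits 2 adjacent p53 half-sites, a motif that reads the same on both strands. That stretch, counted for letters fitting out of 20, is in capitals in the following upstream stretches (Bax, chr7:45466899-45467148, minus strand; Bbc3, chr7:16309333-16309582, plus strand).
Bax: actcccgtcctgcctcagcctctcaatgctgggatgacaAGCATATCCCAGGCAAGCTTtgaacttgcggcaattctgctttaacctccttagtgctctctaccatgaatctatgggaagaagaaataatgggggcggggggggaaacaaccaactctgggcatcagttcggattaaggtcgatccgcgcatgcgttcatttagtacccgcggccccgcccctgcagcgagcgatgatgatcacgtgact
Bbc3: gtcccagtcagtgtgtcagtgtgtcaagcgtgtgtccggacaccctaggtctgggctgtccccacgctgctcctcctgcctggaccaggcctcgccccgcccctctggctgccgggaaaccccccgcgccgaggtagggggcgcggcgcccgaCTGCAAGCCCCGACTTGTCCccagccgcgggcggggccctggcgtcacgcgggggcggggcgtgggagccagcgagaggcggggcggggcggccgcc

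In both genes 17 of the 20 letters fitted, starting at position -211 in Bax and -97 in Bbc3, counted from the RefSeq start. In Bbc3 that start lies inside the gene's span in GENCODE, which begins at 16308393, so the printed stretch is upstream of the RefSeq start only. Of all 32851 windows, 6.29% held a stretch that fitted at least as well, and among the members with a window no other gene reached 17. A complete half-site was present in Bax alone of these members, at position -201, and in 8.36% of all windows. The forkhead core GTAAACA, searched on both strands, was present in 1 window each of Bbc3 and Bcl2l11, against 3.65% of all windows. In Bbc3 this window belongs to a second RefSeq start, downstream of the start used for the p53 stretch. Bbc3 and Bcl2l11 are known targets of the FOXO factors. Their stretches are shown with the core in capitals, read on the minus strand in Bbc3 (chr7:16310083-16310111, plus strand; Bcl2l11, chr2:128125800-128125828, plus strand).
Bbc3: tctggcgggttTGTTTACaaacaatgggg
Bcl2l11: aagacactaggGTAAACAcgccggggtgg
These matches describe the letters in the windows. Binding was not measured in these samples.

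Counts assigned to genes numbered 31897737 to 43394700 per library, of which 49.2% to 67.7% came from mitochondrially encoded genes. Genes with any count numbered 16149 to 17241 in controls and 16857, 14674 and 13972 in knockouts 1 to 3. The coefficient of variation between samples, estimated by edgeR over all tested genes, was 0.602 in controls and 1.01 in knockouts. Dpy30 was lower in every knockout (5.95 to 13.7 CPM, counts per 1000000) than in any control (24.2 to 31.6 CPM), and its mean was 34.2% of the control mean (edgeR log2 fold change -1.55, SE 0.464, adjusted p = 0.672). Of 14 HSC markers, 14 passed the filter. Their summed level was 834 to 875 CPM in controls and 1022, 1139 and 356 CPM in knockouts 1 to 3, so knockout 3 stood apart. Knockout 2 stood apart in 6 endothelial markers, with a sum of 143 CPM against 1098 to 1727 CPM in the other 5 libraries. In controls this sum lay above that of the HSC markers, and whether HSCs or other cells gave it was not tested. In bulk samples fewer cells of a type and less RNA per cell cannot be told apart.

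Bax, Bbc3 and Pmaip1 were the members in which every knockout lay above every control. Bbc3 and Pmaip1 were low in controls, and their mean levels in knockouts were 21.5 and 7.56 times as high. Bax, the highest of these members in controls, reached 1.78 times the control mean. In edgeR's quasi-likelihood test none of the 10 members had an adjusted p under 0.05, as was the case for 0% of the 13646 genes tested. Over all tested genes every knockout exceeded every control in 6.39%.

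Bax (chromosome 7, 45461697 to 45466898) stood at 12.2, 9.01 and 6.08 CPM in controls 1 to 3 and at 12.8, 20.9 and 14.9 CPM in knockouts 1 to 3. The groups did not overlap, but the highest control and the lowest knockout, both from litter 1, were nearly level. The mean was 9.11 ± 3.07 CPM for controls against 16.2 ± 4.24 CPM for knockouts (n = 3 each, SD; two-sided exact permutation p = 0.1, the smallest that 3 against 3 samples allow). The edgeR log2 fold change was 0.83 (SE 0.507, adjusted p = 0.834).

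Bbc3 (chromosome 7, 16308393 to 16318205) was found with 5, 1 and 4 counts across controls 1 to 3, against 71, 46 and 111 across knockouts 1 to 3. This came to 0.173, 0.0267 and 0.0907 CPM in the controls and 1.79, 1.27 and 3.17 CPM in the knockouts, so that the lowest knockout was several times the highest control. Means were 0.0967 ± 0.0731 and 2.07 ± 0.984 CPM (n = 3 each, SD; two-sided exact permutation p = 0.1). Over the summed counts the ratio was 22.7, with an exact 95% interval of 12.1 to 47.9 that covers counting error only. The edgeR log2 fold change was 4.39 (SE 1.33, adjusted p = 0.672; unadjusted p = 0.0108). Bbc3 passed the filter on low counts only through the knockouts, so a difference was built into its being tested. For Pmaip1, controls 2 and 3 also met the filter's count level, but at least 1 knockout was needed too. Both genes drop out where at least 10 counts are required in every sample. Bbc3 was the one of 10 members with an unadjusted p under 0.05, against 6.51% of all tested genes, and also the one in edgeR with litter as a block (unadjusted p = 0.0343), against 4.54% of them. Its log2 fold change was above that of 99.5% of tested genes. DESeq2 called none of the members, with or without litter in the model, where it called 2.16% and 1.03% of genes; its adjusted p for Bbc3 was 0.151.

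Pmaip1 (chromosome 18, 66458533 to 66465565), which encodes NOXA, an antagonist of MCL1, was found with 0, 42 and 19 counts across controls 1 to 3, against 160, 74 and 199 across knockouts 1 to 3. On the CPM scale controls 2 and 3 stood at 1.123 and 0.431 and the knockouts at 4.03, 2.04 and 5.68. The groups did not overlap, and litter 2 showed the smallest difference, a ratio of 1.82 (exact 95% counting interval 1.23 to 2.72). In litter 3 the ratio was 13.2. In litter 1, where the control had 0 counts, the knockout stood at 38.9 times the level that 3 counts would give in that control. The exact 95% counting interval of the ratio in litter 1 began at 31.2. Means were 0.518 ± 0.567 CPM for controls against 3.92 ± 1.82 CPM for knockouts (n = 3 each, SD; two-sided exact permutation p = 0.1). The edgeR log2 fold change was 2.91 (SE 1.59, adjusted p = 0.797), and it lay between 2.33 without control 1 and 4.14 without control 2.

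**Figure D1:**
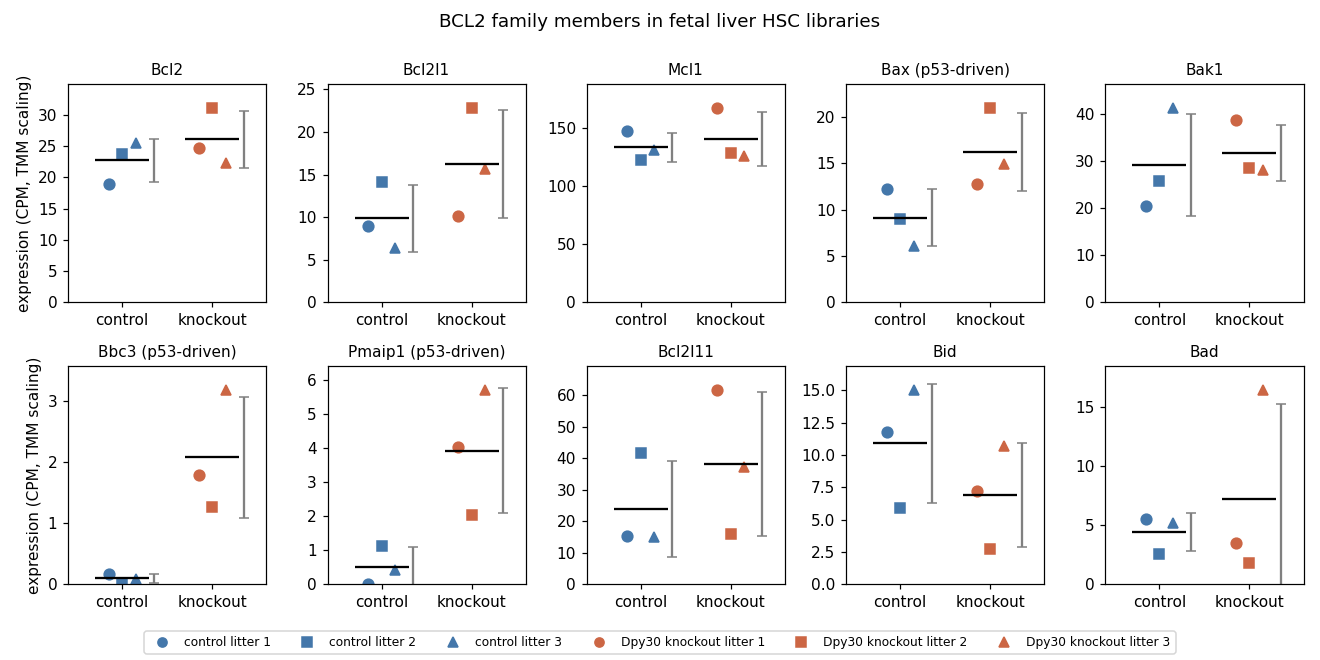
Expression of the 10 members in each sample (CPM on the vertical axis, each panel starting at 0), controls in blue and knockouts in orange, with the litter as marker shape, the mean as a black line and 1 SD as a grey bar, cut at 0 for Pmaip1 in controls and Bad in knockouts. Bax, Bbc3 and Pmaip1 show no overlap between genotypes, whereas the other 7 panels do.

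Markers of other blood cells also differed between the libraries. Of 12 macrophage and monocyte markers tested, 10 had a positive log2 fold change, and the median of all 12 was 1.71, against 0.01 over all tested genes. Among the 12 markers, 5 lay higher in every knockout than in any control (6.39% of all tested genes did). In edgeR 6 had an unadjusted p under 0.05, all higher in the knockout (4.26% of all tested genes), and 0 passed the adjusted threshold. DESeq2 called 3 of them higher (0.777% of all genes it tested). Their summed level was 291 to 597 CPM in controls and 347 to 1470 CPM in knockouts. Granulocyte markers summed to 59.5 to 124 CPM in controls and 69.6 to 403 CPM in knockouts. Of 7 mast cell and basophil markers 2 were tested and Fcer1a and Cma1 were at 0 in every library; their sum was 0.0691 to 5.48 CPM in controls and 6.42 to 18.2 CPM in knockouts. In knockout 2 the macrophage sum, 347 CPM, lay inside the range of the controls, while its granulocyte sum (148 CPM) and its mast cell and basophil sum (6.42 CPM) were above every control. Without knockout 2 the log2 fold changes were 0.61 for Bax, 4.65 for Bbc3 and 3.22 for Pmaip1. Without knockout 3 they were 0.90, 3.96 and 2.55. The part of other cell types in these results was not tested. With either knockout left out, the members with every knockout above every control were again Bax, Bbc3 and Pmaip1, where the share of all tested genes was 13.3% without knockout 2 and 12% without knockout 3. Without control 2 the count rose from 3 to 5 as Bcl2l1 and Bcl2l11 joined, against 9.53% of all tested genes.

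None of the other 4 death genes separated the genotypes. Bak1 (chromosome 17, 27019810 to 27029009), the second effector, stood at 20.5, 25.7 and 41.2 CPM in controls 1 to 3 and at 38.6, 28.5 and 28.0 CPM in knockouts 1 to 3. The control of litter 3 was the highest sample of all and the control of litter 1 the lowest. Fitted by edgeR, Bak1 had a log2 fold change of 0.12 (SE 0.375, adjusted p = 0.977), and it turned to -0.076 without control 1 and to -0.044 without knockout 1, and was 0.46 without control 3.

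Bcl2l11 (chromosome 2, 128126038 to 128162547) encodes BIM, a BH3-only protein that binds all the main survival proteins. Its level was 15.3, 41.6 and 14.9 CPM in controls 1 to 3 and 61.5, 16.1 and 37.1 CPM in knockouts 1 to 3. Control 2, knockout 1 and knockout 3 were high and the other 3 libraries low, so the direction differed between litters, with changes of 2.01, -1.37 and 1.31 on the log2 scale. The same 3 libraries had the highest sums of endothelial markers, at 1727, 1581 and 1638 CPM, against 1206, 1098 and 143 CPM in control 1, control 3 and knockout 2. Whether HSCs or other cells gave these marker counts was not tested, nor was the part of other cell types in this pattern. For Bcl2l11 edgeR gave a log2 fold change of 0.68 (SE 0.598, adjusted p = 0.891), and it lay between 0.15 without knockout 1 and 1.35 without control 2.

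Bid (chromosome 6, 120891930 to 120916853), the BH3-only protein cleaved by caspase-8 to link death receptors to mitochondria, was the one member with a negative log2 fold change. It stood at 11.8, 5.94 and 14.99 CPM in controls 1 to 3 and at 7.25, 2.70 and 10.7 CPM in knockouts 1 to 3. The knockout was lower in each of the 3 litters, by 0.70, 1.12 and 0.48 on the log2 scale, while the groups as a whole overlapped. The edgeR log2 fold change was -0.66 (SE 0.714, adjusted p = 0.914). Fitted with litter as a block the value came to -0.77 (edgeR adjusted p = 0.953). Without control 3 it was -0.36, without knockout 2 -0.28 and without knockout 3 -1.12.

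Bad (chromosome 19, 6941861 to 6951899), a BH3-only protein held inactive by survival factor signalling, had values of 5.49, 2.54 and 5.17 CPM in controls 1 to 3 and 3.50, 1.76 and 16.4 CPM in knockouts 1 to 3. Knockout 3 alone was high, and in litters 1 and 2 the knockout was the lower sample. The edgeR log2 fold change of 0.71 (SE 0.973, adjusted p = 0.935) turned to -0.73 without knockout 3 and was 0.13 with litter as a block.

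The 3 survival genes also overlapped between genotypes. Mcl1 (chromosome 3, 95658788 to 95663176), the most abundant member, stood at 147, 122 and 131 CPM in controls 1 to 3 and at 167, 128 and 126 CPM in knockouts 1 to 3. Its spread was small in both groups, with means of 133 ± 12.6 and 140 ± 23.2 CPM (n = 3 each, SD; two-sided exact permutation p = 0.7). For Mcl1 edgeR gave a log2 fold change of 0.07 (SE 0.216, adjusted p = 0.976), and its sign turned under upper-quartile scaling (-0.042) and without knockout 1 (-0.073). The highest value, 0.32, came from scaling by library size only.

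Bcl2 (chromosome 1, 106538178 to 106714274), the founding survival gene, had 18.9, 23.7 and 25.5 CPM in controls 1 to 3 and 24.8, 31.1 and 22.4 CPM in knockouts 1 to 3. Its knockout was higher in litters 1 and 2 and lower in litter 3, with a fitted log2 fold change of 0.20 (SE 0.348, edgeR adjusted p = 0.958). That value was 0.054 without knockout 2, 0.083 without control 1 and 0.31 without knockout 3. Bcl2l1 (chromosome 2, 152780668 to 152831728), which encodes BCL-XL, had 9.01, 14.2 and 6.35 CPM in controls 1 to 3 and 10.1, 22.8 and 15.6 CPM in knockouts 1 to 3. It was higher in the knockout of every litter, by 0.17, 0.68 and 1.29 on the log2 scale, while knockout 1 lay below control 2. Its log2 fold change of 0.72 (SE 0.547, edgeR adjusted p = 0.868) lay between 0.39 without knockout 2 and 1.08 without control 2.

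**Figure D2:**
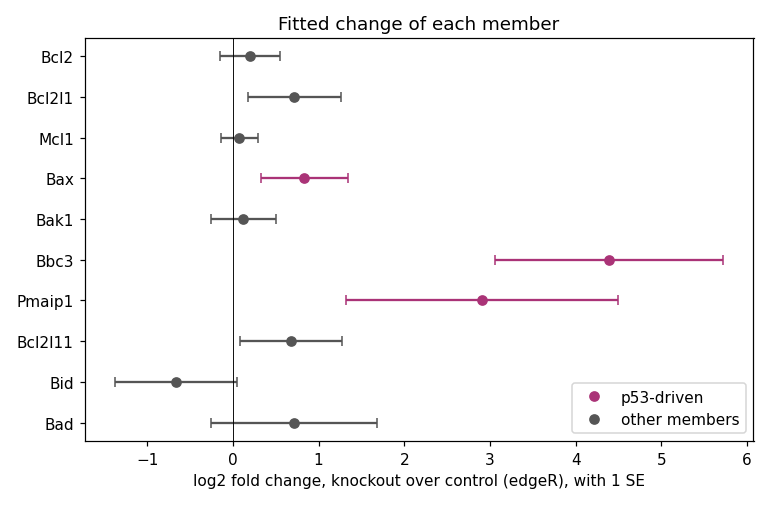
Log2 fold change of each member, knockout over control, from edgeR (horizontal axis), with bars of 1 standard error, p53-driven members in purple and the other 7 in grey. Bbc3 (4.39) and Pmaip1 (2.91) lie far from 0 with wide bars, and Bid (-0.66) is the one member on the negative side.

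The p53-driven members were then set against the other 7. Their log2 fold changes had a median of 2.91 (range 0.83 to 4.39), against 0.20 (range -0.66 to 0.72) for the others and 0.01 over all tested genes. The ranges nearly met, at Bax (0.83, SE 0.507) and Bcl2l1 (0.72, SE 0.547). Without control 2, Bcl2l11 (1.35) and Bcl2l1 (1.08) exceeded Bax (0.83). Without knockout 2, Bad (1.18) and Bcl2l11 (1.04) exceeded Bax (0.61). Without control 1, and also without knockout 3, Bax stayed above the other 7. Bbc3 was tested only through its counts in knockouts, and Pmaip1 needed at least 1 knockout to be tested. The median of 2.91 is the value of Pmaip1. It was 3.90 with litter as a block in edgeR, 3.99 with limma-voom, 4.01 with DESeq2 and litter as a block, and 3.95 (there the value of Bbc3) without control 2. Among lower values were 2.33 without control 1, 2.55 without knockout 3 and 2.77 under upper-quartile scaling. With at least 10 counts in every sample, Bax alone remained, at 0.82. Every p53-driven member was higher in the knockout in all 3 litters, which follows from every knockout lying above every control and is no further evidence. Of the other 7 members, 1 (Bcl2l1) was higher in all 3 litters and 1 (Bid) was lower in all 3.

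In each sample the mean log2 CPM of the other 7 members was subtracted from that of the 3 p53-driven members. The difference was -5.05, -4.26 and -4.68 across controls 1 to 3, against -2.27, -1.996 and -1.998 across knockouts 1 to 3. The knockout exceeded its littermate by 2.77, 2.27 and 2.69 in litters 1 to 3, a mean of 2.58. The members behind these values differed. In litter 1 Bax, Bbc3 and Pmaip1 changed by 0.06, 3.02 and 6.23, in litter 2 by 1.21, 4.03 and 0.83. In litter 3 they changed by 1.29, 4.48 and 3.56. The value of Pmaip1 in litter 1 depends on the prior count of 2, because its control had 0 counts. With a prior count of 0.5 the mean difference was 3.00. The mean of the p53-driven members was -0.46 ± 0.42 for controls against 2.28 ± 0.38 for knockouts, whereas the other 7 members gave 4.203 ± 0.071 for controls against 4.37 ± 0.39 for knockouts (n = 3 each, SD). Each p53-driven member already separated the genotypes, and the mean of the other 7 changed little. The separation of the scores follows from that and adds no evidence. No p is given for these scores, because the members were chosen with results of these data known. Counting Bid, which has also been described as a p53 target in the mouse, among the p53-driven members gave a difference of 1.54. Leaving out Bax gave 3.52, leaving out Bbc3 2.03 and leaving out Pmaip1 2.18.

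**Figure D3:**
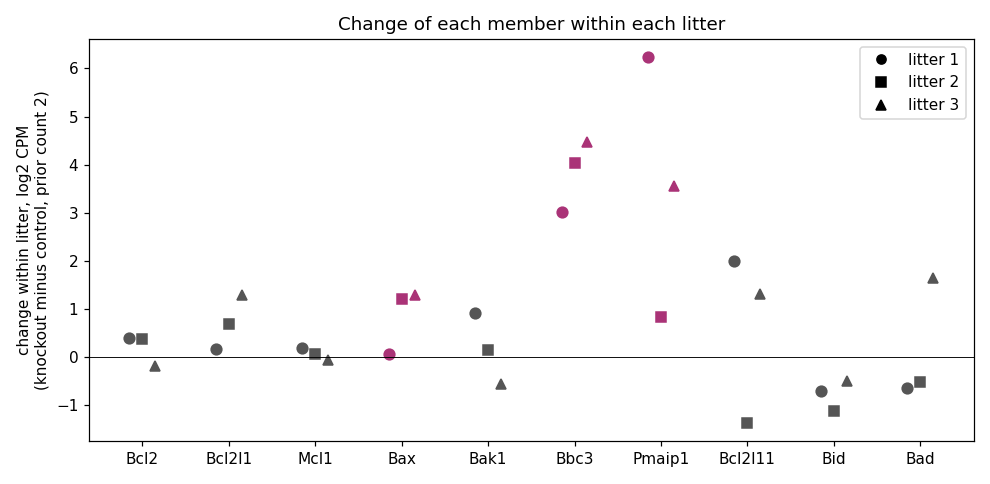
Change of each member within each litter (vertical axis, log2 CPM of the knockout minus that of the control, with a prior count of 2), with the litter as marker shape and the p53-driven members in purple. All 9 purple points lie above 0, as follows where every knockout exceeds every control, with Bax in litter 1 close to 0. Bcl2l11, Bak1 and Bad, by contrast, have points on both sides.

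The totals of death against survival transcripts overlapped between genotypes. Bax counts per 100 Bcl2 counts were 64.8, 38.0 and 23.8 across controls 1 to 3, against 51.5, 67.4 and 66.8 across knockouts 1 to 3. The ratio was higher in the knockout in litters 2 and 3 and lower in litter 1, so the groups overlapped, with means of 42.2 ± 20.8 and 61.9 ± 9.01 (n = 3 each, SD). Summed counts of the 7 death genes per 100 counts of the 3 survival genes were 37.4, 53.6 and 51.0 across controls 1 to 3, against 64.1, 40.3 and 70.9 across knockouts 1 to 3. Here litter 2 went the other way. Bbc3 and Pmaip1 together came to 0.117, 0.940 and 0.399 counts per 100 Mcl1 counts in controls 1 to 3. In knockouts 1 to 3 they came to 3.48, 2.58 and 7.05, with no overlap. Each of these genes already separated the genotypes and Mcl1 hardly changed, so the lack of overlap follows from that and adds no evidence.

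**Figure D4:**
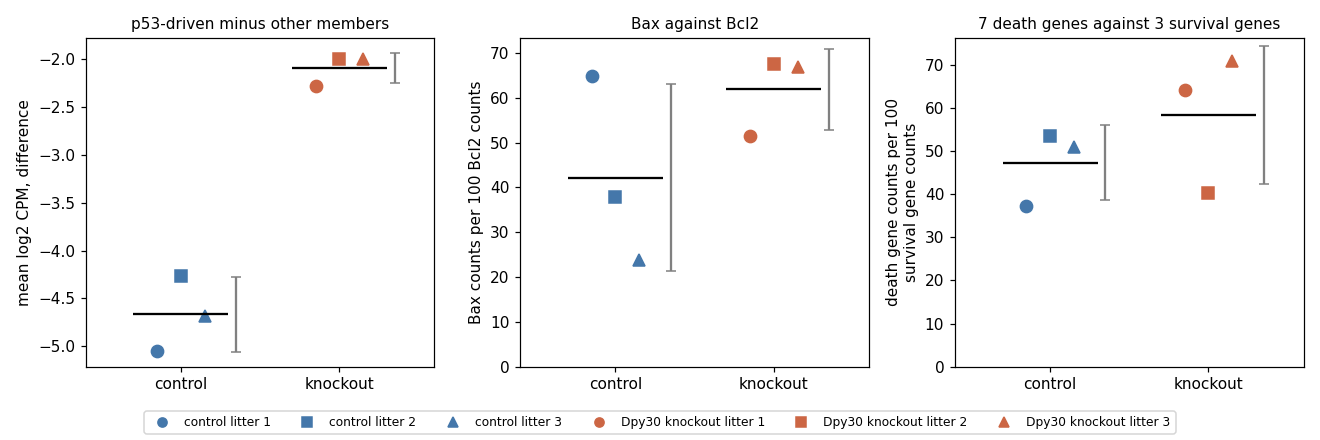
Measures per sample (points, litter as marker shape; mean as a black line and 1 SD as a grey bar): the mean log2 CPM of p53-driven minus other members, Bax counts per 100 Bcl2 counts, and death gene counts per 100 survival gene counts. The genotypes separate in the first panel (controls -5.05 to -4.26, knockouts -2.27 to -1.996) and overlap in the others. The separation follows from that of each p53-driven member and adds no evidence.

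Levels of different genes were compared as CPM per kilobase of merged exons. In controls the order was Mcl1 (39.0 ± 3.70), Bak1 (12.1 ± 4.47), Bax (5.78 ± 1.95), Bid (3.07 ± 1.29), Bcl2l11 (2.98 ± 1.90), Bcl2 (2.48 ± 0.376), Bcl2l1 (2.15 ± 0.867), Bad (1.72 ± 0.633), Pmaip1 (0.190 ± 0.207) and Bbc3 (0.0455 ± 0.0344; n = 3 each, SD). The ranges of Mcl1 and Bak1 stood clear of their neighbours. From Bax down to Bad each range overlapped the next, and Pmaip1 and Bbc3 overlapped each other below all the rest. In knockouts Mcl1 (41.0 ± 6.78), Bak1 (13.2 ± 2.49) and Bax (10.3 ± 2.69) again came first, and the ranges of Bak1 and Bax now overlapped. Pmaip1 (1.43 ± 0.668) and Bbc3 (0.977 ± 0.463) remained the lowest in mean but overlapped with Bid (1.94 ± 1.132) above them. The p53-driven members with the highest fold changes were thus the members with the lowest levels in both genotypes.

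Of 16 other BCL2 family genes in the tables, 7 passed the filter and 0 passed edgeR's threshold, with 0 also at an unadjusted p under 0.05 and 0 called by DESeq2. Their median log2 fold change was -0.72, with 3 positive and 4 negative. The survival gene Bcl2l2, which encodes BCL-W, stood at 10.7, 8.18 and 5.15 CPM in controls 1 to 3 and at 4.25, 0.303 and 8.14 CPM in knockouts 1 to 3, so the groups overlapped. Among death genes, Bmf, a BH3-only gene, was high in knockout 3 alone (16.8 CPM, against 0.0827 to 3.56 CPM in the other 5 libraries), the library in which Bad was also high. The log2 fold changes were -2.19 for Bok (SE 1.64), 0.38 for Bnip3l (SE 0.374) and -0.72 for Bnip3 (SE 0.783), and the groups overlapped in all 3 genes. Bcl2l13 (0.45) and Bcl2l12 (-1.20) also overlapped between genotypes. Bcl2l15, which did not pass the filter, had 4, 19 and 16 counts in the controls and 0 in each knockout. Bcl2a1a, Bcl2a1c and Bcl2a1d, near-identical copies whose reads the counting may not have assigned, were at 0 in all 6 libraries.

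Downstream of the mitochondrial step, cytochrome c and Apaf1 assemble the apoptosome that activates caspase-9. Of 15 genes listed, 14 were tested, none passed edgeR's threshold, and 9 had a negative log2 fold change (median -0.24). An unadjusted p under 0.05 was found in 1, lower in the knockout, and 2 lay lower in every knockout than in any control, as did 7.74% of all tested genes. Cycs, the cytochrome c gene, was among the latter (3.63 ± 1.72 against 1.11 ± 0.763 CPM; n = 3 each, SD), and was named after its values were seen. Casp9 (log2 fold change -1.79, SE 0.881), Diablo (-0.75, SE 0.476) and Apaf1 (0.77, SE 0.468) overlapped between genotypes.

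The level of Trp53, the gene of p53 itself, overlapped between genotypes (219 ± 15.6 CPM for controls against 223 ± 4.89 CPM for knockouts; n = 3 each, SD; log2 fold change 0.03, SE 0.182, edgeR adjusted p = 0.990). Of 23 p53 targets outside the family, 18 had a positive log2 fold change, with a median of 1.35 against 0.01 over all tested genes, and 9 lay higher in every knockout than in any control, as did 6.39% of all tested genes. By edgeR 0 of the 23 passed the adjusted threshold. An unadjusted p under 0.05 was found in 9, all higher in the knockout, where 4.26% of all tested genes were. DESeq2 called 3 of them higher, where it called 0.777% of all genes it tested higher. The list was drawn up with earlier results of these data known. Averaged over its genes, log2 CPM was higher in the knockout by 0.89, 0.90 and 1.58 in litters 1 to 3, where the p53-driven members averaged 3.11, 2.02 and 3.11.

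Single targets gave a scale for the members. Cdkn1a, the cell cycle inhibitor p21, stood at 1.93, 3.00 and 1.45 CPM in controls 1 to 3 and at 33.5, 92.5 and 164 CPM in knockouts 1 to 3 (edgeR log2 fold change 5.51, SE 0.666, adjusted p = 0.452). Like Bbc3 it was low in every control and higher in every knockout. Mdm2, the ubiquitin ligase that restrains p53, had 82.3, 31.2 and 55.7 CPM in controls and 106, 83.1 and 122 CPM in knockouts, a log2 fold change of 0.88 (SE 0.367, edgeR adjusted p = 0.759). As in Bax, the highest control and the lowest knockout were nearly level. Ccng1 (log2 fold change 1.65), Sesn2 (3.09) and Aen (1.36), which encode a cyclin, a stress-induced regulator of growth signalling and a nuclease, lay between these extremes. Mdm4, the partner of Mdm2, had a log2 fold change of 0.23 (SE 0.267).

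**Figure D5:**
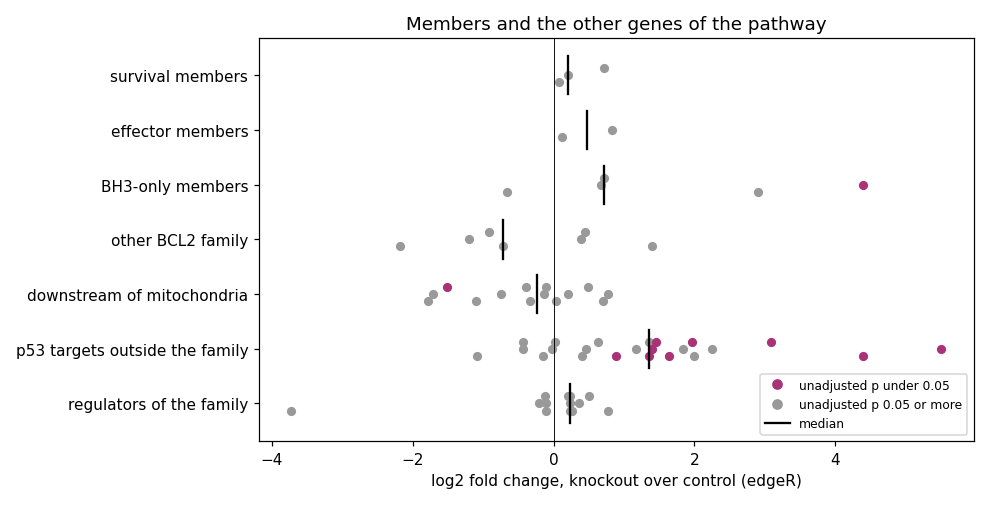
Log2 fold changes from edgeR (horizontal axis) for the tested genes of each list, 1 point per gene, purple where the unadjusted p was under 0.05, with the median as a black line. The p53 targets outside the family have a median of 1.35 and 9 purple points, whereas the genes downstream of mitochondria have a median of -0.24.

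Among 13 regulators of the family, 8 had a positive log2 fold change (median 0.23), with 0 past the threshold of edgeR or DESeq2 and 0 at an unadjusted edgeR p under 0.05. Myc, a growth-promoting transcription factor that can sensitise cells to apoptosis, stood at 200 ± 18.7 CPM for controls against 284 ± 69.9 CPM for knockouts (n = 3 each, SD; log2 fold change 0.50, edgeR adjusted p = 0.775). Usp9x, a deubiquitinase of MCL1, Ddit3, which encodes CHOP, and Trib3 had log2 fold changes of 0.23, 0.78 and -3.72, the last from 1.39 ± 1.85 CPM in controls. Foxo3 was singled out because of the forkhead core in promoter windows of Bbc3 (that of its second RefSeq start) and Bcl2l11. Its level was 147 ± 32.1 CPM for controls against 173 ± 45.6 CPM for knockouts (n = 3 each, SD; edgeR adjusted p = 0.926).

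The genes whose log2 CPM followed each p53-driven member most closely over the 6 samples were listed as a description. The samples share 2 genotypes and 3 litters, so any gene that differs between genotypes can score highly. For Bax these were Rnh1 (Pearson r = 0.987), Nfic (0.980) and Ift20 (0.975). For Bbc3 they were Anxa1 (0.995), Ndufv3 (0.989) and Baz2a (0.988). For Pmaip1 they were Sppl2a (0.990), Kin (0.990) and Myo10 (0.989). Anxa1 stood at 3.55 ± 1.26 CPM for controls against 28.7 ± 13.1 CPM for knockouts (n = 3 each, SD; log2 fold change 3.02, edgeR adjusted p = 0.564). None of these 9 genes is on the list of p53 targets, and the lists for the 3 members shared no gene.

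Several members share exon bases with another gene in GENCODE M21, which bears on their counts because the counting rule for strand is not given in the sources used here. Bax shares 192 bases with Gm45808 on the same strand. On opposite strands, Bak1 shares 614 bases with Ggnbp1, Bid 628 bases with Bcl2l13, Bcl2 558 bases with D630008O14Rik and Bad 524 bases with Gpr137. Reads there may have been left out as ambiguous, a class that held 0.780% to 0.919% of the tallied reads per library. No annotated gene overlaps the other 5 members.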

How the data were processed

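Whole-number counts per gene symbol were deposited by the authors for each of the 6 samples, not normalized, 1 library per table. The submitters' processing notes name mm10, CASAVA 1.8.4, TopHat2, Picard 1.126, HTSeq 0.6.0 and bedtools 2.17.0, without roles. The 5 closing tallies of reads given to no gene (41.0% to 51.0% of reads) were left out. Genes were kept with filterByExpr (13646 genes), scaled by TMM and tested with edgeR 4.0.16 (R 4.3.3; quasi-likelihood F test, Benjamini-Hochberg adjustment over all tested genes, threshold 0.05). Each SE was derived from the fitted change and its F statistic. CPM use TMM factors, and log2 CPM a prior count of 2. DESeq2 1.42.0 and limma 3.58.1 (voom) were alternatives. The procedure was tested on simulated counts, with a pass mark set only at a spread smaller than that of these data. Passing it does not show how many real changes would be called here. Litter numbers in the labels pair the samples. Correlations of paired deviations from the genotype means were -0.02, -0.08 and 0.00 in litters 1 to 3. Positions, exon lengths and overlaps are from GENCODE M21 (GRCm38), and promoter windows from RefSeq. No molecular tags are described, so count intervals cover counting error only. The members and all gene lists were chosen with earlier results of these data known. Named genes are the 10 members, Dpy30, Cdkn1a, Mdm2, up to 4 genes per list in order of unadjusted p, other family genes whose groups did not overlap, and for each p53-driven member the 3 genes with the highest Pearson r among genes averaging 5 CPM or more in a genotype, without predicted genes and RIKEN clones. Forkhead motif and best-fitting p53 stretch were chosen after the data were seen. A gene that this rule would name is not reported here.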

Additional observations from a re-analysis of the deposited data

How the results depend on the processing

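No member passed the threshold under any of the 16 alternatives in which it could be fitted. Bbc3 and Pmaip1 could not be fitted where at least 10 counts were required in every sample. The count of all genes past the threshold, 0 in the main edgeR test (888 at an unadjusted p under 0.05), was 1 with that filter and 1 without a filter (Cdkn1a in both), 138 with DESeq2 and 277 with DESeq2 and litter as replicate block. It ranged from 0 to 0 when single samples were left out. With litter as replicate block in edgeR, a pairing given by the labels, 0 genes and 0 members passed (619 genes at an unadjusted p under 0.05), so the block changed no call. It moved the log2 fold change of Pmaip1 from 2.91 to 3.90. The difference between p53-driven and other members, knockout minus control (2.58), was 1.54 with Bid counted as p53-driven, 3.00 with a prior count of 0.5, and 3.52, 2.03 and 2.18 without Bax, Bbc3 and Pmaip1, and 2.39 to 2.78 without single samples. The leaving out of members changes the average by construction; the cause of the other moves was not tested. Signs turned for Bad (-0.73 without knockout 3, range -0.73 to 1.18), Bak1 (-0.076 without control 1 and -0.044 without knockout 1, range -0.076 to 0.46) and Mcl1 (-0.042 under upper-quartile scaling and -0.073 without knockout 1, range -0.073 to 0.16 without single samples, and 0.32 when scaled by library size only). The other 7 members kept their direction under every alternative that could be fitted. The Bax to Bcl2 log2 ratio difference of 0.66 lay between 0.31 and 1.03 without single samples. The median of all genes was -0.10 under upper-quartile scaling and 0.23 when scaled by library size only. The count of members with every knockout above every control was 3 under each other scaling, chosen after the data were seen, and 3 to 5 without single samples. The share of all tested genes with every knockout above every control ran from 4.93% to 9.29% over those scalings and from 8.93% to 13.3% without single samples, against 6.39% in all samples.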
